A study of Mus musculus with 4 samples.

Results

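Atrioventricular canal (AVC) cardiomyocytes were examined in single-cell RNA sequencing of E14.5 mouse ventricles, as the non-cycling cardiomyocytes with at least 1 counted molecule of *Tbx3* and 2 of *Rspo3*. They numbered 294 of the 45551 cell barcodes in the 4 libraries, with 66 and 97 in the control and 74 and 57 in the *Ets1* eKO libraries. Control libraries came from Tie2Cre; *Ets1* fl/+ embryos and *Ets1* eKO libraries from Tie2Cre; *Ets1* fl/fl embryos, so both groups carried the Cre transgene and at least 1 floxed allele. The Tie2 promoter drives Cre in endothelial, endocardial and blood cells, and cardiomyocytes are not its target. Each library pooled the ventricles of 3 untreated embryos on a C57BL/6 background, embryos of both sexes were used without typing, and the labels give 1 batch for all libraries.

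A barcode counted as a cardiomyocyte when it had 1000 to 7000 genes, at most 15% mitochondrial counts, at least 1% of its unique molecular identifiers (UMIs, counted transcript molecules) in *Tnnt2*, *Actc1*, *Tnnc1* and *Ttn*, and at most 1 UMI of *Pecam1*, *Cdh5*, *Emcn* and *Egfl7*. It counted as non-cycling with at most 3 UMIs over 8 genes of DNA replication and mitosis, and as an AVC cardiomyocyte with at least 1 UMI of *Tbx3* and at least 2 UMIs of *Rspo3*. Compact and trabecular cardiomyocytes were taken from the same 9331 non-cycling cardiomyocytes for comparison. Compact cells had *Hey2* and at least 0.1% of UMIs in *Tnnt1*, with *Nppa* below 0.1% and no *Bmp10*, and trabecular cells had *Bmp10* and at least 0.3% of UMIs in *Nppa*, with *Tnnt1* below 0.1%. This gave 1277 compact and 735 trabecular cells. The level of a gene in a library and class is its summed UMIs scaled to a total of 1000000 (CPM), and in such sums fewer expressing cells and less RNA per cell cannot be told apart.

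The AVC myocardium lies between the atria and the ventricles, where it conducts slowly and delays the impulse, and it gives rise to the atrioventricular node. The T-box repressors *Tbx2* and *Tbx3* keep it from taking on the fast-conducting program of the chambers, and *Bmp2* made in this myocardium acts on the endocardium beside it during formation of the cushions. R-spondin 3, encoded by *Rspo3*, is a secreted protein that strengthens Wnt signaling.

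The AVC cells of the libraries held 724349, 1158495, 766047 and 348950 UMIs in sum, with medians of 5715 to 10570 UMIs per cell and *Ets1* eKO replicate 2 the shallowest. Of all barcodes, 19 to 47 were shared by each pair of libraries, but no barcode was an AVC cell in both. The replicates of a group differed beyond sampling noise and were counted as separate samples. Since 3′ counts of different genes were not scaled by length, levels are compared between classes and libraries and never between genes. *Ets1* (chr9:32636221-32757820) was at 299.8 and 273 CPM in barcodes with at least 5 endothelial UMIs of the controls, against 136 and 100.1 CPM in *Ets1* eKO, and at 5.52 and 6.91 CPM against 11.7 and 14.3 CPM in AVC cells, where its counts were too low to be tested. The floxed exons are not given in the sources used here, so the remaining counts may lie outside the deleted part.

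The AVC cells were selected on their counts of *Tbx3* and *Rspo3*, so the level of this pair is given as a description without a test. *Tbx3* (chr5:119670669-119684724 in GRCm38, the mm10 build) was at 208 and 200.3 CPM (control) and 214 and 284 CPM (*Ets1* eKO), against 2.65 to 4.59 CPM in compact and 0 to 2.51 CPM in trabecular cells. *Rspo3* (chr10:29452416-29535867) was at 1309 and 1181 CPM (control) and 1123 and 1315 CPM (*Ets1* eKO), against 6.50 to 12.2 CPM in compact and 1.23 to 3.61 CPM in trabecular cells. Many AVC cells lay at the edge of the rule, since 136 of 294 (46.3%) had 1 UMI of *Tbx3*, 40 (13.6%) had 2 UMIs of *Rspo3*, and 24 had both. The share with 2 UMIs of *Rspo3* was 7.58% and 10.3% in control and 17.6% and 21.1% in *Ets1* eKO libraries, without overlap. That with 1 UMI of *Tbx3* was 42.4% and 46.4% against 45.9% and 50.9%, which overlap. The part of this in the comparison of the groups was not tested.

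AVC markers that the rule did not use differed in how they followed the 2 counts. *Bmp2* was at 4.24 CPM in the 7876 cells without *Tbx3* or *Rspo3*, and at 109 CPM in the 41 cells just outside the rule, with 1 UMI of each. The 24 cells just inside it, with 1 UMI of *Tbx3* and 2 of *Rspo3*, had 129 CPM, and the 142 cells with at least 2 and 3 UMIs had 481 CPM. The T-type calcium channel gene *Cacna1g* was at 3.93, 26.0, 27.6 and 120 CPM in these 4 sets. *Tbx2* was at 1.87, 26.0, 23.0 and 53.0 CPM and the connexin 45 gene *Gjc1* at 85.1, 146, 138 and 241 CPM, so that neither was higher just inside the rule than just outside it. *Irx3* showed no such order, with 28.2, 33.9, 4.59 and 24.9 CPM, of which the third value is 1 UMI. The pacemaker factor *Shox2* also departed from it, as its highest level, 131 CPM, was in the 63 cells with at least 2 UMIs of *Tbx3* and no *Rspo3*, which lie outside the rule, against 40.3 CPM in the last set. These sums pool the 4 libraries and are descriptions.

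**Figure D1:**
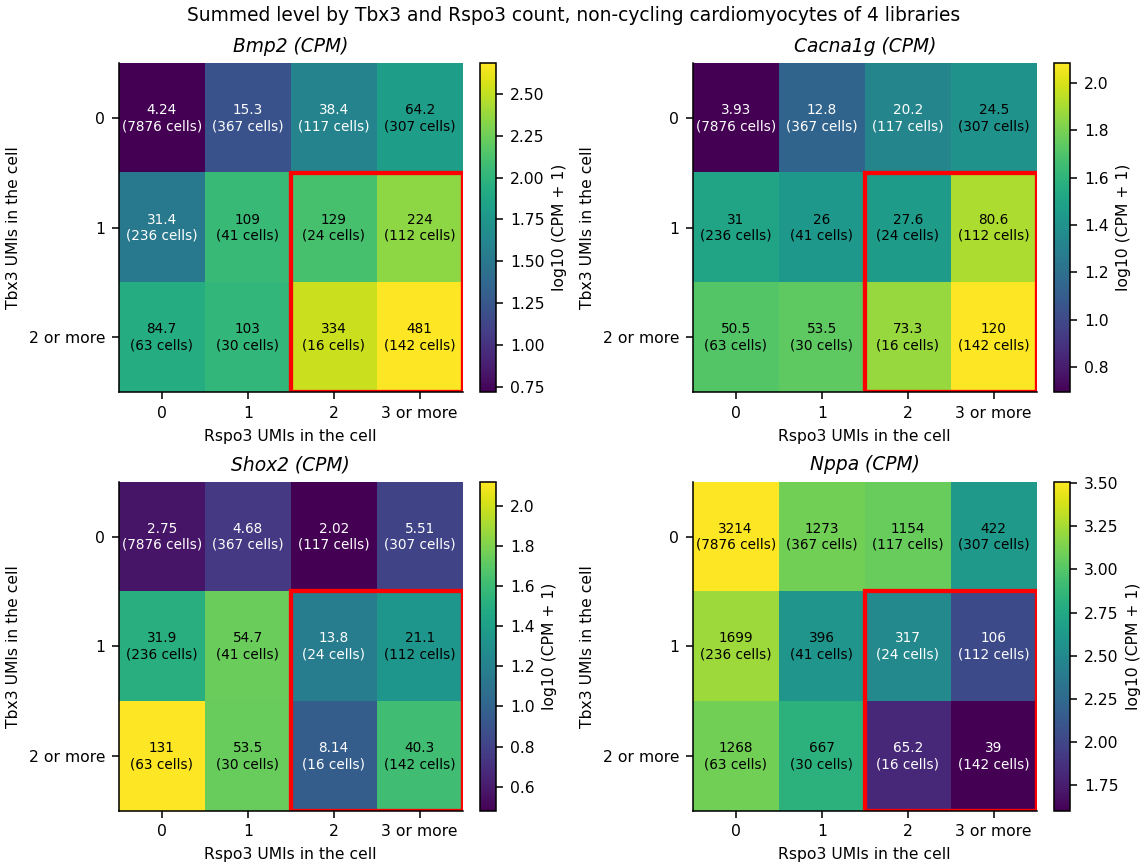
Summed level of *Bmp2*, *Cacna1g*, *Shox2* and *Nppa* (CPM, colour on a log10 scale) in non-cycling cardiomyocytes of all 4 libraries, by the UMIs of *Tbx3* (rows) and *Rspo3* (columns) in the cell, with the cells in each set in brackets and the AVC cells inside the red frame. *Bmp2* rises from 4.24 to 481 CPM toward the lower right, where *Nppa* is at 39.0 CPM, and *Shox2* is highest in the lower left set, at 131 CPM.

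Further markers of AVC myocardium were checked in single cells. After thinning each cell to 5000 UMIs, at least 3 of the 9 markers *Tbx2*, *Bmp2*, *Msx2*, *Irx3*, *Cacna1g*, *Cacna1h*, *Gjd3*, *Gjc1* and *Hcn4* were detected in 48.4% and 52.6% of control and 46.5% and 56.1% of *Ets1* eKO AVC cells. The same share was 0.337% to 1.01% in compact and 0.433% to 5.85% in trabecular cells. None of the 9 was detected in 4.21% to 9.76% of AVC cells. At this depth *Bmp2* was detected in 48.4% to 61.0% of AVC cells, 1.01% to 3.54% of compact cells and 2.18% to 3.07% of endothelial barcodes. Background RNA and expression by the endothelial cells themselves were not told apart in the last share. Of the 9 markers, *Gjd3*, a connexin of the conduction system, was at or near 0 in all classes, with 0 CPM in 3 libraries and 2.61 CPM in *Ets1* eKO replicate 1 of AVC cells.

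To determine how AVC cardiomyocytes differ from the other cardiomyocytes of the same ventricles, UMI sums of AVC, compact and trabecular cells were fitted together, with library as a block and the genes of the gates left out. Of 10777 genes tested with edgeR's Benjamini-Hochberg adjusted quasi-likelihood F-test, 2166 (20.1%) were higher and 2259 (21.0%) lower in AVC than in compact cells. Against trabecular cells, 1617 (15%) were higher and 1884 (17.5%) lower. AVC cells were higher than both other classes for 1108 genes (10.3%) and lower than both for 1164 (10.8%), and the counts of the gene lists below are read against these shares. Scaling by total counts in place of TMM moved the median log2 difference of all genes from 0.02 to 0.24 against compact and from -0.02 to 0.29 against trabecular cells. With it the higher genes were 71.0% in place of 48.9% of those called against compact and 78.5% in place of 46.2% of those called against trabecular cells, so small differences depend on the scaling. Log2 differences are given ± their standard error where one is printed. The p-values measure the spread between these 4 libraries, and the cells of a library are not independent samples.

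**Figure D2:**
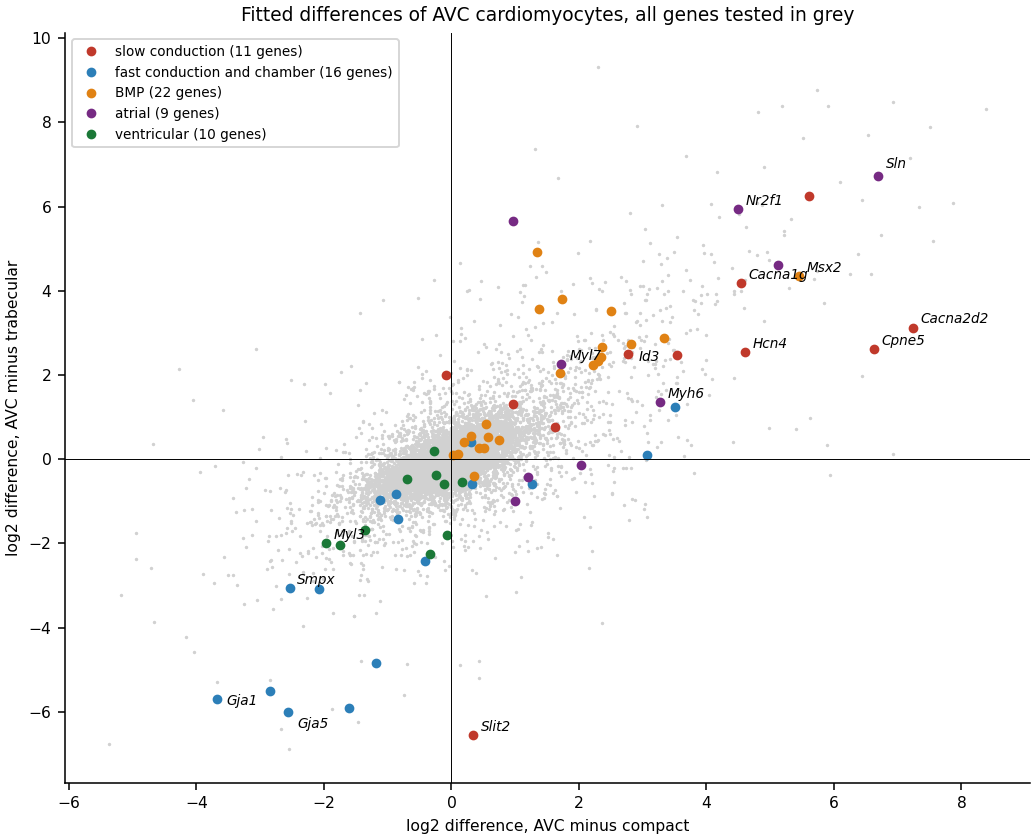
Fitted log2 difference of AVC from compact cells (horizontal axis) and from trabecular cells (vertical axis) for all 10777 genes tested (grey) and the members of 5 gene lists (colours). Slow conduction genes such as *Cacna2d2* and *Cpne5* lie in the upper right and fast conduction genes such as *Gja1* and *Gja5* in the lower left, while *Slit2* lies at 0.33 against compact and -6.55 against trabecular cells.

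Transcription factors of AVC myocardium were more often higher than lower in AVC cells. Of 22 tested members of a list of 25, 12 were higher than in both other classes (*Tbx2*, *Tbx5*, *Gata4*, *Gata6*, *Nkx2-5*, *Msx2*, *Shox2*, *Id1*, *Id2*, *Id3*, *Id4* and *Hand2*) and 1, *Tbx18*, was lower than in both. The median log2 difference of the list was 0.99 against compact and 0.72 against trabecular cells, beside 0.02 and -0.02 over all genes. *Tbx2* (chr11:85832551-85841948), the T-box repressor that defines the early AVC with *Tbx3*, was at 59.4 and 57.8 CPM (control) and 24.8 and 68.8 CPM (*Ets1* eKO) in AVC cells, and at 1.13 to 1.53 CPM in compact and 0.614 to 2.15 CPM in trabecular cells. All 4 AVC values lay above all values of the other classes, with log2 differences of 4.95 ± 0.28 and 4.93 ± 0.32 and adjusted p = 4.66e-14 and 8.43e-13 in edgeR's Benjamini-Hochberg adjusted quasi-likelihood F-test. *Msx2*, a homeobox target of BMP signaling, was at 31.5 to 37.9 CPM in AVC cells, with differences of 5.45 and 4.35. *Tbx5* (chr5:119832668-119885219), an activator of atrial and conduction genes, was at 261 and 173 CPM (control) and 178 and 206 CPM (*Ets1* eKO). Compact cells held 18.3 to 20.8 CPM of it and trabecular cells 58.6 to 93.1 CPM, so that the 3 classes did not overlap, and the differences were 3.11 ± 0.13 and 1.04 ± 0.11 on the log2 scale. *Hand2*, a basic helix-loop-helix factor, was raised by 0.96 and 1.62.

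Iroquois factors separated AVC from trabecular cells in the other direction. *Irx3* (chr8:91798525-91802067), which the fast ventricular conduction system also uses, was at 13.8 and 19.0 CPM (control) and 22.2 and 37.3 CPM (*Ets1* eKO) in AVC cells. Trabecular cells held 62.4 to 103 CPM and compact cells 4.92 to 10.4 CPM, and no class overlapped another. The log2 difference was 1.20 ± 0.27 against compact and -2.18 ± 0.20 against trabecular cells, with adjusted p = 0.000621 and 5.55e-10 by edgeR's Benjamini-Hochberg adjusted quasi-likelihood F-test. The paper names *Irx3* beside *Tbx3* and *Rspo3* as a marker of its AVC cluster, while in the AVC cells gated here it was lower than in trabecular cells. *Irx1*, *Irx2* and *Irx5* were likewise lower than in trabecular cells. *Tbx18*, a factor of the sinus horns and the epicardium, was at 0.863 to 5.73 CPM in AVC and 11.1 to 19.3 CPM in compact cells (log2 difference -3.43).

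*Shox2* (chr3:66971727-66981771), a homeobox factor of pacemaker myocardium, was nearly absent from compact and trabecular cells. Its level was 12.4 and 13.8 CPM (control) and 65.3 and 43.0 CPM (*Ets1* eKO) in AVC cells, against 0 to 0.481 CPM in compact and 0 to 0.451 CPM in trabecular cells. A few UMIs at most were counted in those classes, so no fold or p-value is given. The call of *Shox2* as higher than both classes is a comparison with almost no counts. The window of 250 bases before its RefSeq start (chr3:66981772-66982021, minus strand, GRCm38.p6) is shown with that of the pacemaker channel gene *Hcn4* (chr9:58822699-58822948, plus strand), as genes of pacemaker myocardium. Both windows were searched on both strands for the T-box half-site GGTGTGA and the GATA site AGATAA, which do not overlap each other in sequence, and a match would be in capitals. Neither motif was found in them. Of 32851 mouse promoter windows of this length, 3.33% hold the first and 9.99% the second motif.
Shox2: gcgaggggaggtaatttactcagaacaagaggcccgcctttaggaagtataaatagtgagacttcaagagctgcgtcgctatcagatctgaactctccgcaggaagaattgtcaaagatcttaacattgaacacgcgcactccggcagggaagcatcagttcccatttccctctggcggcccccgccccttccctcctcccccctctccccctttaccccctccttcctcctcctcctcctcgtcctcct
Hcn4: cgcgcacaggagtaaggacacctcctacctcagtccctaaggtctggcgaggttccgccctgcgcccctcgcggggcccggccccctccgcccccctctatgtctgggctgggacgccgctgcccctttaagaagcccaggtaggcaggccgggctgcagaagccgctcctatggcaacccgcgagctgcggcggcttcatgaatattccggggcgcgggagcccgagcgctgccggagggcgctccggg
These windows are a description of sequence, and a missing match says only that the letters are not there.

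Of the signals that act between AVC myocardium and the cushions, more were higher than lower in AVC cells. Of 11 tested members of a list of 14, 7 were higher than in both other classes (*Bmp2*, *Bmp4*, *Bmp5*, *Tgfb2*, *Has2*, *Hapln1* and *Sema3c*) and 1, the chemokine gene *Cxcl12*, was lower, while *Bmp7*, *Tgfb3* and *Vcan* were neither, with medians of 1.69 and 2.53. *Bmp2* (chr2:133552159-133562885), the ligand that starts cushion formation, was at 318 and 321 CPM (control) and 479 and 281 CPM (*Ets1* eKO) in AVC cells. Compact cells held 4.97 to 9.12 CPM and trabecular cells 1.08 to 1.84 CPM, and the lowest AVC library lay far above both. The log2 difference was 5.52 ± 0.14 and 7.62 ± 0.20, with adjusted p = 9.15e-22 and 4.94e-21 in edgeR's Benjamini-Hochberg adjusted quasi-likelihood F-test. *Bmp4* was at 16.6 to 43.0 CPM in AVC cells (log2 differences 2.96 and 4.11), and *Bmp5* at 78.3 to 97.5 CPM (1.67 and 2.29). *Tgfb2*, a ligand of cushion transformation, was raised by 1.43 and 2.70. *Has2*, the hyaluronan synthase of the cardiac jelly, was at 11.7 to 15.5 CPM in AVC cells and at most 1.87 CPM in the others.

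BMP signaling genes were mostly higher in AVC cells. Of 22 tested members of a list of 26, 17 were higher than in both other classes and 0 were lower, with median log2 differences of 1.36 and 2.14. The receptor genes *Acvr2a* and *Acvr2b*, *Smad4*, *Smad5* and *Twsg1* were not higher than both. Of the higher genes *Id1*, *Id2*, *Id3* and *Msx2* are also in the list of transcription factors. Across the other settings 15 to 21 were higher than compact and 14 to 21 higher than trabecular cells, and 17 and 16 of 21 when barcodes with over 5 UMIs of other cell types or over 2 times the median depth were left out. The type I receptor gene *Bmpr1a* differed least among the higher genes whose differences are given in this paragraph, by 0.31 and 0.55. *Id3*, a direct target that inhibits basic helix-loop-helix factors, was at 120.1 and 153 CPM (control) and 150.1 and 238 CPM (*Ets1* eKO) in AVC cells, and at 9.45 to 32.1 CPM in compact and 17.2 to 28.0 CPM in trabecular cells. Its differences were 2.81 ± 0.16 and 2.74 ± 0.17, and those of *Id2* were 1.73 and 3.79. *Smad6*, an inhibitory Smad that BMP induces, was at 137 and 196 CPM (control) and 83.5 and 123 CPM (*Ets1* eKO) in AVC cells, 2.36 and 2.67 above the others on the log2 scale. The extracellular modulator *Bmper* differed by 2.50 and 3.52, and the activin antagonist *Fst* by 1.35 and 4.91. These values passed the threshold of an adjusted p of 0.05 in edgeR's Benjamini-Hochberg adjusted quasi-likelihood F-test.

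Of 19 tested members of a list of 37 Wnt and R-spondin genes, 2 were higher than in both other classes and 1 was lower, near the shares over all genes, with medians of 0.26 and 0.14. With total count scaling 7 were higher than in both (*Axin2*, *Lef1*, *Fzd2*, *Lrp6*, *Wnt11*, *Wnt5b* and *Znrf3*), where 21.9% of all genes tested were, and *Lgr4* was still lower, with medians of 0.48 and 0.44 beside 0.24 and 0.29 over all genes. *Lef1* and *Axin2*, higher under both scalings, are Wnt targets. *Lef1*, a nuclear effector of Wnt signaling, was at 117 and 102 CPM (control) and 79.6 and 88.8 CPM (*Ets1* eKO) in AVC cells. It was at 2.29 to 5.18 CPM in compact and 2.69 to 7.21 CPM in trabecular cells, a log2 difference of 4.44 ± 0.21 and 4.0 ± 0.22. *Lef1* was as high in some cells outside the rule. Over all libraries it was at 128 CPM with at least 2 UMIs of *Tbx3* and no *Rspo3*, against 92.0 CPM with at least 2 and 3 UMIs. *Axin2*, a feedback inhibitor induced by Wnt, was at 31.8 and 31.1 CPM (control) and 26.1 and 20.1 CPM (*Ets1* eKO) in AVC cells, against 1.89 to 3.37 CPM and 1.08 to 2.25 CPM, with differences of 3.07 and 3.91 and adjusted p = 1.2e-09 and 1.17e-09 in edgeR's Benjamini-Hochberg adjusted quasi-likelihood F-test. The R-spondin receptor gene *Lgr4* was lower, at 36.6 to 57.0 CPM against 56.6 to 78.6 CPM in compact and 62.0 to 91.4 CPM in trabecular cells (-0.71 and -1.03), and its AVC libraries overlapped those of compact cells.

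Genes of slow conduction and pacemaking had the largest median difference from compact cells of the 19 lists. Of 11 tested members of a list of 14, 9 were higher than in both other classes (among them *Hcn4*, *Cacna1g*, *Cacna1h*, *Cacna1d*, *Cacna2d2*, *Gjc1*, *Cpne5* and *Ntm*) and 0 were lower than in both. The medians were 3.53 against compact and 2.50 against trabecular cells, and 9 and 10 members were higher than compact and trabecular cells in each alternative setting. *Hcn4* (chr9:58823412-58863175), the main pacemaker channel, was at 70.4 and 69.1 CPM (control) and 82.2 and 45.9 CPM (*Ets1* eKO) in AVC cells. It was at 1.15 to 3.61 CPM in compact and 4.96 to 12.6 CPM in trabecular cells, with no overlap, and the differences were 4.6 ± 0.23 and 2.56 ± 0.20. *Cacna1g* (chr11:94408391-94474198) was at 119 and 104 CPM (control) and 73.1 and 83.1 CPM (*Ets1* eKO). Its levels were 0.756 to 7.88 CPM and 1.80 to 8.38 CPM in the other classes, and the differences 4.54 ± 0.26 and 4.19 ± 0.28.

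Subunits of calcium channels and connexins within this list differed in degree. *Cacna2d2*, an auxiliary calcium channel subunit, was at 425 and 466 CPM (control) and 658 and 605 CPM (*Ets1* eKO) in AVC cells and at 1.15 to 4.98 CPM in compact cells, a difference of 7.24 ± 0.20 on the log2 scale. Trabecular cells were between them, at 34.7 to 63.7 CPM (difference 3.11 ± 0.15). *Cpne5*, a calcium-binding copine, followed the same order, with 249 to 309 CPM, 1.51 to 3.11 CPM and 35.0 to 39.4 CPM in AVC, compact and trabecular cells. *Cacna1d*, the L-type channel gene of pacemaker cells, differed by 3.53 and 2.47, and the T-type channel gene *Cacna1h* by 1.63 and 0.77. *Gjc1*, which encodes a low-conductance connexin, was at 226 and 229 CPM (control) and 180.1 and 244 CPM (*Ets1* eKO) in AVC cells. Compact cells held 81.8 to 112 CPM and trabecular cells 59.1 to 83.4 CPM, again without overlap, and the differences were 0.96 ± 0.11 and 1.31 ± 0.12. The adjusted p of *Cacna1h* against trabecular cells was 0.000661 in edgeR's Benjamini-Hochberg adjusted quasi-likelihood F-test, and it was below 0.05 for the others.

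Genes of fast conduction and the working chambers mostly went the other way. Of 16 tested members of a list of 17, 10 were lower than in both other classes (among them *Gja5*, *Gja1*, *Smpx*, *Kcnj2*, *Nppb*, *Pln*, *Ryr2*, *Cacna1c* and *Cited1*) and 2, *Kcnj5* and *Atp2a2*, were higher, with medians of -1.0 and -1.91. Against compact cells alone 10 were lower and 5 higher (*Atp2a2*, *Casq2*, *Kcnj3*, *Kcnj5* and *Slc8a1*), and against trabecular cells 13 were lower and 2 higher. *Gja1* (chr10:56377330-56402513), which encodes the main connexin of working muscle, was at 9.66 and 4.32 CPM (control) and 18.3 and 8.6 CPM (*Ets1* eKO) in AVC cells. Compact cells held 74.9 to 130.0 CPM and trabecular cells 269 to 466 CPM, and the classes did not overlap. The differences were -3.68 ± 0.22 and -5.70 ± 0.19, with adjusted p = 1.24e-13 and 3.01e-19 in edgeR's Benjamini-Hochberg adjusted quasi-likelihood F-test. In cells thinned to 5000 UMIs, *Gja1* was detected in 0% to 4.88% of AVC, 24.2% to 34.9% of compact and 65.4% to 85.8% of trabecular cells, and in 17.4% to 20.9% of endothelial barcodes.

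The high-conductance connexin gene *Gja5* (chr3:96904693-97077416) was at 6.90 and 0 CPM (control) and 1.31 and 2.87 CPM (*Ets1* eKO) in AVC cells, and at 8.91 to 14.4 CPM and 92.4 to 139 CPM in the other classes. AVC cells were the lowest of the 3 classes in every library, with log2 differences of -2.57 ± 0.48 and -6.01 ± 0.30. Calcium handling was split within the list. The sarcoplasmic calcium pump gene *Atp2a2* was higher by 0.31 and 0.41, its inhibitor phospholamban, *Pln*, differed by -0.84 and -1.41, and the release channel gene *Ryr2* by -1.12 and -0.97. *Kcnj5*, which encodes a subunit of the acetylcholine-gated potassium channel of atrial and nodal cells, was at 57.0 to 78.3 CPM in AVC, 1.53 to 6.63 CPM in compact and 13.1 to 30.1 CPM in trabecular cells (3.50 and 1.23). *Nppb*, beside *Nppa* on chromosome 4, was -1.18 and -4.83 from the other classes, its AVC libraries overlapped those of compact cells, and without control replicate 2 the former difference was -0.77 and no longer past the threshold.

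*Smpx* (chrX:157698910-157752591), a small protein of chamber muscle that *Tbx2* and *Tbx3* repress, was at 108 and 104 CPM (control) and 151 and 163 CPM (*Ets1* eKO) in AVC cells. Compact cells held 589 to 683 CPM and trabecular cells 776 to 976 CPM, so that even the highest AVC library was far below both, with differences of -2.54 ± 0.10 and -3.05 ± 0.10. *Nppa* (chr4:148000722-148002079), which encodes atrial natriuretic peptide and is also repressed by these factors, took part in the gates of the other classes and is given as a description. It was at 156 and 20.7 CPM (control) and 117 and 77.4 CPM (*Ets1* eKO) in AVC cells, at 49.3 to 117 CPM in compact cells, which the gate kept low, and at 17057 to 23123 CPM in trabecular cells, which the gate kept high. The 250 bases before the RefSeq starts of both genes are shown because both are textbook targets of the T-box repressors that mark these cells. *Nppa* lies at chr4:148000472-148000721 (plus strand, GRCm38.p6) and *Smpx* at chrX:157698723-157698972 (plus strand), and the same 2 motifs were searched on both strands, with matches in capitals. The RefSeq starts of *Smpx* and *Hcn4* differ from the gene bounds given above, which are those of GENCODE.
Nppa: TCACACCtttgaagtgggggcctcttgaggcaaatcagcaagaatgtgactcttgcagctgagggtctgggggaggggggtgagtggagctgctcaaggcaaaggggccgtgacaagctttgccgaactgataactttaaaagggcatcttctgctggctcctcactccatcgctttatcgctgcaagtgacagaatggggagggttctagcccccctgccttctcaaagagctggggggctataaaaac
Smpx: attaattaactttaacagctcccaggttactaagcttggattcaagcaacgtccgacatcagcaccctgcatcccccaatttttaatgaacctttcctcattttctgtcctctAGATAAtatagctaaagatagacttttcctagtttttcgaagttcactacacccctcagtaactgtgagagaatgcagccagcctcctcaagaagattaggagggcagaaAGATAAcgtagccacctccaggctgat
In *Nppa* the T-box half-site occurs 1 time, as its reverse complement TCACACC, from base 250 to base 244 before the start. In *Smpx* the GATA site occurs 2 times, at bases 137 to 132 and 27 to 22 before the start, and the T-box letters do not occur in this window. A match is a description of sequence and not a measured binding site.

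**Figure D3:**
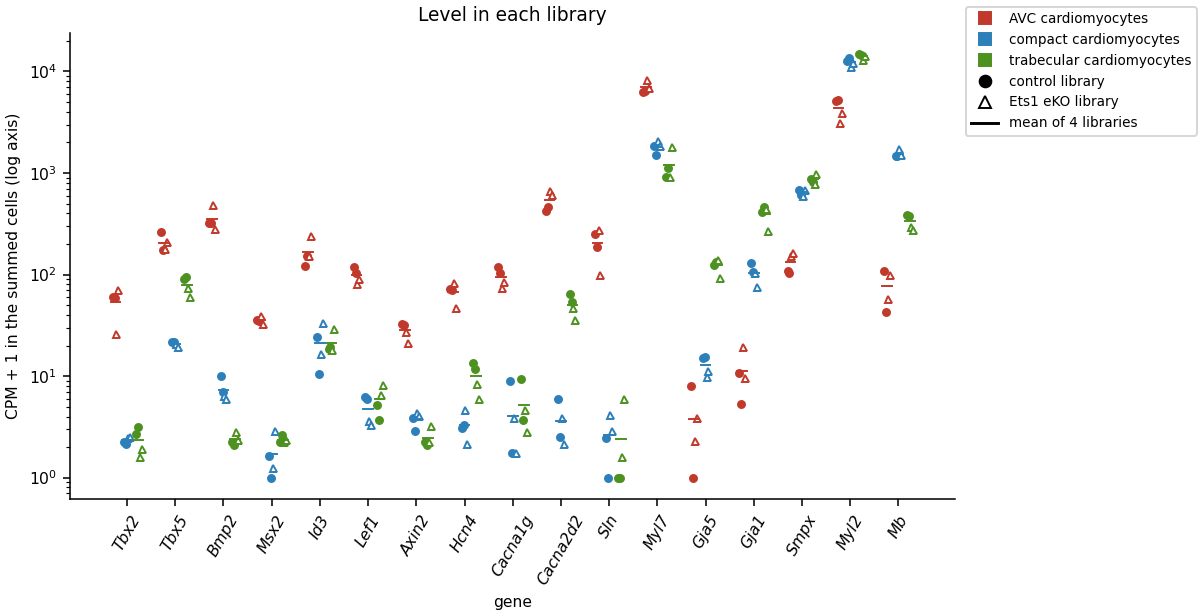
Level of 17 genes (CPM + 1, log axis) in AVC (red), compact (blue) and trabecular (green) cells of each library, with filled circles for control and open triangles for *Ets1* eKO libraries and a line for the mean of 4. From *Tbx2* to *Myl7* the AVC values lie above those of compact cells and from *Gja5* to *Mb* they lie below.

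Atrial genes were mostly higher in AVC cells. Of 9 tested genes of an atrial list of 11, 9 were higher than in compact cells, and 6 (among them *Myl7*, *Sln*, *Nr2f1*, *Nr2f2* and *Myh6*) were higher than in both other classes, with medians of 2.03 and 2.27. *Myl4* and *Dkk3* were lower than in trabecular cells, *Myl4* not with total count scaling. *Sln*, the atrial regulator of the calcium pump, was at 249.9 and 186 CPM (control) and 275 and 97.4 CPM (*Ets1* eKO) in AVC cells and at most 4.96 CPM in the others (6.69 ± 0.31 and 6.73 ± 0.36). It was as high in some cells outside the rule. Over all libraries it was at 341 CPM with 1 UMI each of *Tbx3* and *Rspo3*. It was at 257 CPM with at least 2 UMIs of *Tbx3* and no *Rspo3*, against 220 CPM with at least 2 and 3 UMIs. The atrial light chain gene *Myl7* was at 6240.1 and 6448 CPM (control) and 8327 and 6861 CPM (*Ets1* eKO) in AVC cells. It was at 1498 to 2054 CPM in compact and 914 to 1816 CPM in trabecular cells, and AVC cells did not overlap either class (1.72 ± 0.12 and 2.27 ± 0.13). Over all libraries *Myl7* was at 6245 CPM outside the rule, with at least 2 UMIs of *Tbx3* and no *Rspo3*. With at least 2 and 3 UMIs it was at 7996 CPM. The fast heavy chain gene *Myh6* was at 3705 and 3541 CPM (control) and 4462 and 3181 CPM (*Ets1* eKO) in AVC cells, against 238 to 436 CPM and 959 to 1372 CPM (3.27 ± 0.08 and 1.35 ± 0.07). *Nr2f2*, an orphan receptor that sets atrial identity, was at 55.2 to 84.9 CPM in AVC cells and at most 4.91 CPM in the others.

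Of 10 tested ventricular genes, 0 were higher than in both other classes and 5 were lower than in both, namely *Myl2*, *Myl3*, *Myh7*, *Hspb7* and *Tnni3*, with medians of -0.30 and -1.14. The ventricular light chain gene *Myl2* was at 5103 and 5183 CPM (control) and 3089.9 and 3938 CPM (*Ets1* eKO) in AVC cells. It was at 10961 to 13486 CPM in compact and 12834 to 14955 CPM in trabecular cells (-1.74 ± 0.07 and -2.04 ± 0.07). *Myl3*, the second ventricular light chain, differed by -1.97 and -1.99, and the slow heavy chain gene *Myh7* by -1.35 and -1.69. For *Myl2*, *Myl3* and *Myh7* all AVC libraries lay below all libraries of the other classes. For *Tnni3* the CPM values overlapped, and its calls (-0.24 and -0.37) were lost with total count scaling, as was that of *Hspb7* against trabecular cells. With that scaling 4 of the 10 were lower than compact and 6 lower than trabecular cells, and 1 was higher in each case. Adjusted p-values of *Myl2* were 9.55e-18 and 3.56e-19 in edgeR's Benjamini-Hochberg adjusted quasi-likelihood F-test.

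The 8 largest differences in each direction were taken among genes called against both classes in the same direction, with all 4 libraries alike and at least 50 CPM in the higher class. On the higher side these included *Tbx3os1*, *Tmem132c*, *Sln*, *Luzp2*, *Hoxb3os*, *Vsnl1* and *Bmp2*. *Tbx3os1*, the transcript antisense to the marker gene *Tbx3*, was at 96.6 and 84.6 CPM (control) and 69.2 and 94.6 CPM (*Ets1* eKO) in AVC cells and at most 0.838 CPM elsewhere, and as a neighbour of a gene of the rule it is no independent marker. *Tmem132c*, a transmembrane protein gene, was at 196 and 209.8 CPM (control) and 183 and 152 CPM (*Ets1* eKO) in AVC cells and at most 2.29 CPM in compact and 0.902 CPM in trabecular cells (adjusted p = 2.7e-19 and 3.57e-18 in edgeR's Benjamini-Hochberg adjusted quasi-likelihood F-test). *Vsnl1*, which encodes the neuronal calcium sensor visinin-like 1, was at 23.5 and 19.9 CPM (control) and 77.0 and 88.8 CPM (*Ets1* eKO) in AVC cells and at most 0.481 CPM in compact cells. Its mean reached the limit of 50 CPM only through the *Ets1* eKO libraries, so its place among the leading genes rests on them.

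On the lower side were *Gja1*, *Angpt1*, *Doc2g*, *Ntn1*, *Abcc9*, *Mb*, *Mest* and *Smpx*. *Mb* (chr15:77015487-77050670), the oxygen store myoglobin of working muscle, was at 106 and 41.4 CPM (control) and 56.1 and 97.4 CPM (*Ets1* eKO) in AVC cells. It was at 1456 to 1732 CPM in compact and 276 to 387 CPM in trabecular cells, a difference of -4.71 ± 0.15 and -2.58 ± 0.16. *Angpt1*, the cardiomyocyte ligand of the endothelial receptor Tie2, was at 9.66 and 12.1 CPM (control) and 17.0 and 14.3 CPM (*Ets1* eKO) in AVC cells, against 122 to 155 CPM and 345 to 445 CPM (-3.67 ± 0.17 and -5.29 ± 0.15). The imprinted gene *Mest* and the guidance ligand *Ntn1* were highest in trabecular cells, at 1996 to 2715 CPM and 199 to 368 CPM, and were at 15.5 to 35.2 CPM and 2.59 to 17.0 CPM in AVC cells. *Abcc9*, which encodes the regulatory subunit of the ATP-sensitive potassium channel, differed by -2.80 and -3.56.

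Receptors of the Slit family are described because *Slit2* is among the secreted factors the study follows, and they were chosen after their values were seen. *Robo1*, a Slit receptor, was at 643 and 1079 CPM (control) and 705 and 837 CPM (*Ets1* eKO) in AVC cells. It was at 61.2 to 93.6 CPM in compact and 28.4 to 61.3 CPM in trabecular cells (3.10 ± 0.11 and 4.05 ± 0.13). Cells outside the rule with at least 2 UMIs of *Tbx3* were close to AVC cells in *Robo1*. Over all libraries they were at 723 CPM with no *Rspo3* and 789 CPM with 1 UMI of it, against 814 CPM with at least 2 and 3 UMIs. *Robo2* was higher by 2.94 and 2.89, while *Gpc3* and *Itga1* of the same list of 9 receptor and ligand genes were lower than in both classes. With total count scaling *Itga1* was no longer called against trabecular cells and *Gpc3* still was. *Slit2* itself was at 40.0 and 20.7 CPM (control) and 26.1 and 20.1 CPM (*Ets1* eKO) in AVC cells and 14.4 to 20.6 CPM in compact cells, but at 1739 to 2748 CPM in trabecular cells, so that AVC cells were -6.55 ± 0.16 from trabecular cells on the log2 scale. All 4 AVC libraries lay below all trabecular libraries for *Slit2* and above all libraries of both classes for *Robo1*. Adjusted p was 3.13e-18 and 1.81e-19 for *Robo1* and 3.27e-22 for *Slit2* against trabecular cells in edgeR's Benjamini-Hochberg adjusted quasi-likelihood F-test.

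Markers of other cell types were measured in the same sums. The 8 endothelial markers outside the gate summed to 25.8 to 42.8 CPM in AVC, 16.6 to 35.5 CPM in compact cells and 3025 to 3350 CPM in endothelial barcodes. Of the 3 that could be tested, 1, the VEGF receptor gene *Kdr*, was higher than in both other classes. It was at 26.2 and 25 CPM (control) and 15.7 and 20.1 CPM (*Ets1* eKO) in AVC cells against 0.241 to 2.29 CPM and 0 to 2.25 CPM (4.42 and 3.93). *Npr3* was lower than in compact cells, and *Flt1* was called against neither class. The 10 fibroblast and cushion markers summed to 214 to 381 CPM in AVC, 29.1 to 143 CPM in compact and 67.2 to 106 CPM in trabecular cells, and 7 of 9 tested were higher than in both classes (*Col1a1*, *Col1a2*, *Lum*, *Dcn*, *Sox9*, *Twist1* and *Postn*). *Postn*, a matrix protein of cushion cells, was at 66.3 and 58.7 CPM (control) and 70.5 and 83.1 CPM (*Ets1* eKO) in AVC cells (2.31 and 2.42). In another setting the marker gate was applied to counts thinned to 5000 UMIs, and the full counts of the cells kept were summed. There 0 of 7 tested were higher than in compact and 1 higher than in trabecular cells, and 2 were lower than in compact cells. With barcodes of over 5 UMIs of other cell types or over 2 times the median depth left out, 264 AVC cells remained and 1 member could be tested. That limit counts these same markers, so their loss there is no separate test. The part of such counts in the higher cushion signals was not tested, and *Bmp2* differed from compact cells by 5.86 on the log2 scale in the latter setting.

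Epicardial markers summed to 13.1 to 24.2 CPM in AVC and 60.1 to 115 CPM in compact cells, immune markers to 0 to 14.4 CPM in AVC cells, and erythroid genes to 74.2 to 198 CPM in AVC cells. The erythroid sum in compact cells ranged from 62.0 to 3253 CPM between libraries.

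To compare cycling, the limit on cycling genes was dropped and each cell was thinned to 5000 UMIs, with all other gates applied to the thinned counts. Cells with the AVC marker pair exceeded 3 UMIs of the 8 cycling genes in 1 of 41 cells (2.44%) and 3 of 60 (5.0%) in the controls and in 5 of 49 (10.2%) and 3 of 36 (8.33%) in *Ets1* eKO. Other cardiomyocytes exceeded it in 39.1% and 34.9% of cells in the controls and in 40.2% and 47.2% in *Ets1* eKO. The share was lower in AVC cells in 4 of 4 libraries, with exact 95% intervals that did not overlap within any library. The mean difference was -33.9 points, with an exact sign-flip permutation p = 0.13 (two-sided), the smallest that 4 libraries allow. With cells thinned to 8000 UMIs the share was again lower in 4 of 4 libraries, but in *Ets1* eKO replicate 2 it rested on 4 of 10 AVC cells (40.0%, interval 12.2% to 73.8%) against 62.5% of the others (60.8% to 64.1%), which overlap, and the mean difference was -31.5 points. With all UMIs of each cell the shares were 25%, 12.6%, 15.9% and 21.9% in AVC cells and 45.1% to 50.5% in the others. Intervals cover counting error only.

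**Figure D4:**
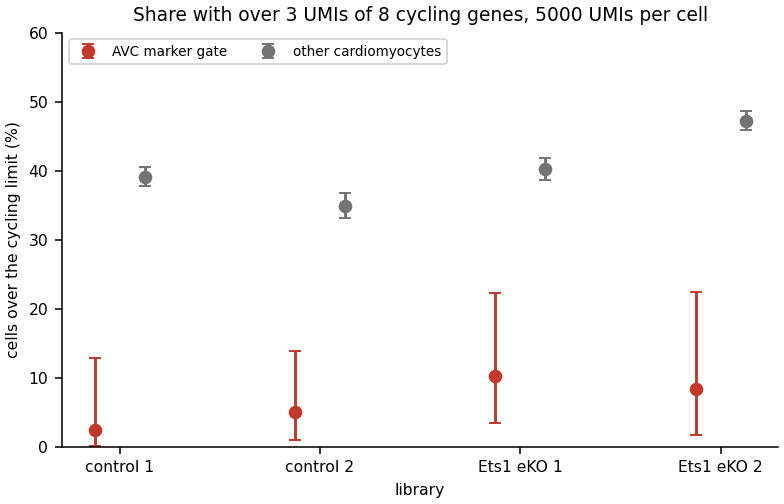
Share of cells over the limit of 3 UMIs of 8 cycling genes (percent), after thinning to 5000 UMIs, for cells with the AVC marker pair (red) and other cardiomyocytes (grey) of each library. Bars are exact 95% binomial intervals. The AVC shares are 2.44% to 10.2% and lie below those of other cardiomyocytes, 34.9% to 47.2%, in each library.

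The share of AVC cells among non-cycling cardiomyocytes was compared between the groups. It was 2.43% (exact 95% interval 1.88 to 3.08) and 6.31% (5.14 to 7.64) in the controls and 3.79% (2.98 to 4.73) and 1.83% (1.39 to 2.36) in *Ets1* eKO. The groups overlapped, since control replicate 1 lay between the *Ets1* eKO libraries, and the replicates of each group differed beyond their intervals. The mean was 4.37% ± 2.74 (SD, n = 2) in control and 2.81% ± 1.39 (SD, n = 2) in *Ets1* eKO, a difference of -1.56 points. Since the rule needs counted UMIs and AVC cells of *Ets1* eKO replicate 2 were the shallowest (median 5715 UMIs), cells were also thinned to 5000 UMIs before the gate. The shares were then 1.48% and 3.94% against 2.36% and 1.32%, a difference of -0.871 points. With all cardiomyocytes as the denominator it was -0.996 points. An exact permutation test over libraries gave p = 0.667 (two-sided) in each of these, and 2 against 2 libraries cannot go below 0.33. With the rule on all UMIs and without control replicate 2 the difference was 0.376 points in the other direction, so its sign rests on that library. Dropping control replicate 1 gave -3.50 points. With *Ets1* eKO replicate 1 left out it was -2.54 points, and with replicate 2 of that group left out -0.58.

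To determine whether loss of endothelial *Ets1* altered gene expression of AVC cardiomyocytes, UMI sums of the 2 control and 2 *Ets1* eKO libraries were compared. Of 8316 genes tested with edgeR's Benjamini-Hochberg adjusted quasi-likelihood F-test, 3 (0.0361%) were higher and 7 (0.0842%) lower in *Ets1* eKO, and 701 had an unadjusted p below 0.05. For 3331 genes (40.1%) the libraries of the groups did not overlap, so a gene without overlap is common with 2 libraries each. DESeq2 called 0 genes (100 with an unadjusted p below 0.05), and 0 were called when barcodes with over 5 UMIs of other cell types or over 2 times the median depth were left out (565 below 0.05). When control replicate 1 was left out 39 genes were called, and 21 when control replicate 2 was. Dropping *Ets1* eKO replicate 1 gave 21 calls, and dropping *Ets1* eKO replicate 2 gave 72. Such fits set 1 library against 2 with 1 residual degree of freedom, so that the lone library is assumed to vary like the other group, and their higher counts are no support for the calls.

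*Vsnl1* and *Shox2* rose in *Ets1* eKO, and both were nearly absent from compact and trabecular cells (above). Like *Shox2*, *Vsnl1* was also found in cells outside the rule. Over all libraries it was at 57.3 CPM with 1 UMI each of *Tbx3* and *Rspo3*. It was at 63.9 CPM with at least 2 UMIs of *Tbx3* and no *Rspo3*, against 49.8 CPM with at least 2 and 3 UMIs. *Vsnl1* (chr12:11325242-11436613) was at 23.5 and 19.9 CPM (control) and 77.0 and 88.8 CPM (*Ets1* eKO), a log2 change of 1.99 ± 0.29 with adjusted p = 0.00162 in edgeR's Benjamini-Hochberg adjusted quasi-likelihood F-test. The lowest *Ets1* eKO library was above the highest control library, and the counts came from 17 and 23 UMIs in 8 and 12 AVC cells of the controls and 59 and 31 UMIs in 20 and 8 AVC cells of *Ets1* eKO. In *Ets1* eKO replicate 2, 16 of the 31 UMIs were in 1 cell. *Shox2* was at 12.4 and 13.8 CPM (control) and 65.3 and 43.0 CPM (*Ets1* eKO), a log2 change of 2.15 ± 0.36 (adjusted p = 0.00642). Its groups did not overlap either, and its UMIs numbered 9 and 16 in 5 and 5 cells of the controls and 50 and 15 in 12 and 4 cells of *Ets1* eKO, with 22 of the 50 in 1 cell. Of endothelial barcodes 0.351% to 0.839% had a *Shox2* UMI, against 7.58% and 5.15% of control and 16.2% and 7.02% of *Ets1* eKO AVC cells. Over the 8 other settings with all 4 libraries the change of *Vsnl1* ranged from 1.78 to 2.53 and passed the threshold in 5 (adjusted p from 1.45e-06 to 0.174), and that of *Shox2* from 1.81 to 2.63, also in 5 (adjusted p from 1.62e-05 to 0.441).

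The third higher gene, the embryonic globin gene *Hbb-y*, is an erythroid marker and was at 12.4 and 13.8 CPM (control) and 44.4 and 88.8 CPM (*Ets1* eKO) (2.25 ± 0.38, adjusted p = 0.00642 in edgeR's Benjamini-Hochberg adjusted quasi-likelihood F-test). In compact cells of the same libraries it was at 401 and 11.0 CPM against 24.6 and 1413 CPM, with replicates far apart, and the erythroid list as a whole summed to 141 and 74.2 CPM in AVC cells of the controls and 164 and 198 CPM in those of *Ets1* eKO.

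Of the 7 lower genes, *Shroom3* (an actin-binding regulator of cell shape) was at 388 and 502 CPM (control) and 211 and 203 CPM (*Ets1* eKO), a log2 change of -1.04 ± 0.20 with adjusted p = 0.018 in edgeR's Benjamini-Hochberg adjusted quasi-likelihood F-test. *Dgki*, a diacylglycerol kinase gene, was at 78.7 and 89.8 CPM (control) and 33.9 and 25.8 CPM (*Ets1* eKO) (-1.38 ± 0.28, adjusted p = 0.0291). Both were higher in AVC than in compact and trabecular cells, and their groups did not overlap. *Btg2*, an antiproliferative early response gene, was at 160.1 and 131 CPM (control) and 57.4 and 68.8 CPM (*Ets1* eKO) (-1.17 ± 0.23, adjusted p = 0.0245), and compact cells of the same libraries held 81.5 and 62.0 CPM against 39.5 and 46.2 CPM. The 9 immediate early and heat shock genes listed, which do not include *Btg2*, summed to 660 and 590 CPM (control) and 561 and 562 CPM (*Ets1* eKO) in AVC cells, to 606 and 477 CPM against 406 and 497 CPM in compact cells, where the groups overlapped, to 1532 and 1125 CPM against 649 and 717 CPM in trabecular cells, and to 1758 and 1358 CPM against 841 and 879 CPM in endothelial barcodes. In AVC cells 0 of the 7 tested were called and 2 had an unadjusted p below 0.05. The median mitochondrial share of AVC cells was 5.12% and 5.03% (control) and 4.39% and 4.15% (*Ets1* eKO). The part of either in these changes was not tested. *Sorcs2*, a sorting receptor gene, was at 53.8 and 69.9 CPM (control) and 19.6 and 17.2 CPM (*Ets1* eKO) (-1.67 ± 0.33, adjusted p = 0.0245), and compact cells of the same libraries held 44.2 and 35.9 CPM against 13.5 and 8.41 CPM. *Plppr1* was at 52.5 and 144 CPM (control) and 24.8 and 20.1 CPM (*Ets1* eKO) (-2.08 ± 0.39, adjusted p = 0.0174), and the interferon-induced gene *Iigp1* was at 60.7 and 71.6 CPM against 22.2 and 14.3 CPM (-1.70 ± 0.33, adjusted p = 0.0185). The skeletal actin gene *Acta1* was at 74.5 and 142 CPM (control) and 39.2 and 11.5 CPM (*Ets1* eKO) (-1.84 ± 0.34, adjusted p = 0.0174), and 38 of its 54 UMIs in control replicate 1 came from 1 cell. Of the 8 other settings with all 4 libraries, 6 of which tested *Acta1*, each of the 7 had the same sign in all and passed the threshold in 4 or 5.

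**Figure D5:**
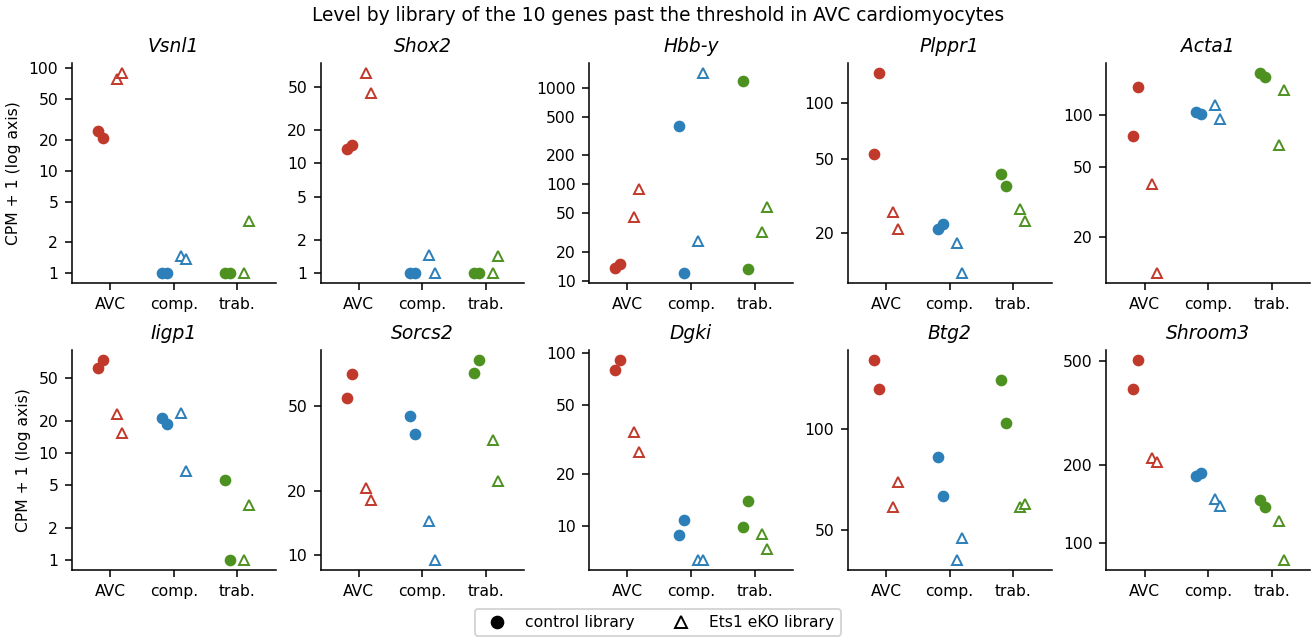
Level (CPM + 1, log axes) of the 10 genes past the threshold between *Ets1* eKO and control in AVC cells, in AVC, compact and trabecular cells of each library (filled circles control, open triangles *Ets1* eKO). In AVC cells the groups do not overlap for any of the 10, while *Vsnl1* and *Shox2* are near the axis floor in the other classes and *Sorcs2* is lower in *Ets1* eKO in each class.

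Genes that define AVC cardiomyocytes were otherwise not past the threshold. *Tbx2* was at 59.4 and 57.8 CPM against 24.8 and 68.8 CPM (control against *Ets1* eKO), a log2 change of -0.48 ± 0.33 with adjusted p = 0.691 in edgeR's Benjamini-Hochberg adjusted quasi-likelihood F-test. *Bmp2* was at 318 and 321 CPM against 479 and 281 CPM, a change of 0.35 ± 0.21 (adjusted p = 0.644), and for both genes the groups overlapped. Without *Ets1* eKO replicate 1 both changes turned their sign, to 0.28 and -0.13, and without replicate 2 of that group they were -1.19 and 0.63. Of the slow conduction list 0 of 11 tested genes were called (median log2 change -0.01), of the fast conduction and chamber list 0 of 11 (0.02), of the BMP list 0 of 21 (-0.03) and of the Wnt and R-spondin list 0 of 14 (-0.01), beside a median of 0.01 over all genes. These lists held 1, 3, 4 and 0 genes with an unadjusted p below 0.05, against 701 of the 8316 genes tested. Of 18 tested AVC transcription factors 1, *Shox2*, was called (median 0.16) and 4 had an unadjusted p below 0.05, of 17 sarcomere genes 1, *Acta1*, was called (0.11) with 5 below it, and of 9 ventricular genes 0 were called (-0.14) with 4 below it. The AVC signals (0 of 10 called, median -0.08) and the atrial list (0 of 9, 0.23) held 2 each. The intervals are wide with 2 libraries each, and a p that misses the threshold does not show that the groups are alike.

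A test of whether the change differed between AVC and compact cells called 0 of 11093 genes (0.0%), with 447 at an unadjusted p below 0.05 and a lowest adjusted p of 0.342 in edgeR's Benjamini-Hochberg adjusted quasi-likelihood F-test. DESeq2 also called 0 (56 below 0.05). When control replicate 1 was left out 14 genes were called, and 25 when control replicate 2 was. Dropping *Ets1* eKO replicate 1 gave 12 calls, and dropping *Ets1* eKO replicate 2 gave 18, again with 1 library in a group. Of 3 genes followed under the alternatives for this test, 1 passed the threshold with no filter on low counts and 1 with replicate number as a block. In the main fit *Acta1* differed by -1.97 ± 0.37 (adjusted p = 0.342), and *Vsnl1* and *Shox2* could hardly be compared, as compact cells held so few of their UMIs. The changes named above are thus not shown to be particular to AVC cells.

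Sex-linked genes differed between the libraries. *Xist*, expressed from the inactive X chromosome, was at 0 and 246 CPM against 313 and 533 CPM in AVC cells (control against *Ets1* eKO). The Y-linked genes *Ddx3y* and *Uty* were at 56.6 and 27.6 CPM against 9.14 and 2.87 CPM and at 101 and 49.2 CPM against 23.5 and 0 CPM. *Eif2s3y* and *Kdm5d*, also on the Y chromosome, were at 71.8 and 21.6 CPM against 13.1 and 0 CPM and at 33.1 and 12.1 CPM against 5.22 and 0 CPM. Of 4 sex-linked genes tested, 4 had an unadjusted p below 0.05 and 0 passed the adjusted threshold. In AVC cells control replicate 1 had no *Xist*, and *Ets1* eKO replicate 2 had the least of the Y-linked genes. Compact cells of control replicate 1 had a UMI of all 5 sex-linked genes listed, *Xist* among them. The part of sex in the 10 changed genes was not tested.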

How the data were processed

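Cells were measured with 10x 3′ v3.1 libraries, and per the labels the authors used Cell Ranger 7.1.0 with mm10. The deposited files hold UMI counts per gene and barcode, not normalized, and no cell annotation was used. Counts were read in Python 3.11.15 (scipy 1.17.1), gated as described and summed per library and class. The sums of 348950 to 1158495 counts in AVC cells limit the precision of low genes. Doublets and ambient RNA were not removed, and no doublet caller was run. Genes passing the expression filter were scaled by TMM and tested with edgeR 4.0.16 (glmQLFTest, R 4.3.3) at an adjusted p of 0.05, with DESeq2 1.42.0 as an alternative. The 22 gate genes were left out of class comparisons. Shares were compared with exact permutation tests over libraries, and their exact (Clopper-Pearson) intervals cover counting error only. Named genes were those of the gates, up to 5 largest and the defining members of a list, the 8 leading genes in each direction, and every gene called between groups, and others are named as chosen later. *Id1*, *Id2*, *Hand2*, *Bmpr1a*, *Fst*, *Kcnj5*, *Atp2a2*, *Pln*, *Ryr2*, *Kdr* and *Postn* were named after their values were seen. The AVC cells and 19 gene lists were chosen with earlier results of these data known. Alternatives changed the gates, scaling, filter, tool and libraries. The fits were tested on simulated data. Promoter windows are from RefSeq (GRCm38.p6), with 70 of 93 named genes matched. Some genes that the rule names are not reported here.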

Additional observations from a re-analysis of the deposited data

How the results depend on the processing

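Differences of named genes between the classes held in the alternatives far more often than those between the groups. Against compact cells, 945 values of 75 named genes under alternatives kept their direction and side of the threshold and 23 fell short of it, and against trabecular cells 1001 of 78 genes did and 6 fell short. None of these reversed. Many of the named genes were chosen from these data for their size or call, so such stability was partly set by the choice. With total count scaling, 3616 of all 4425 genes called against compact cells were called again. Against trabecular cells 2581 of all 3501 were. In another setting the marker gate was applied to counts thinned to 5000 UMIs, and the full counts of the cells kept were summed. *Twist1* then no longer passed against either class, nor *Postn* against compact cells. Between the groups in AVC cells, 10 genes were called. The count was 0 with DESeq2, 0 with the limit on counts of other cell types, 2 with at least 2 *Tbx3* and 3 *Rspo3* UMIs, 5 with cells thinned before the gate, 17 with a mitochondrial limit of 10%, and 39 with no filter on low counts. Leaving out a library gave 21 to 72, in fits where the lone library of a group is assumed to vary like the other group. With a library left out the change of *Tbx2* ranged from -1.19 to 0.28 and that of *Bmp2* from -0.13 to 0.63, and both changed sign without *Ets1* eKO replicate 1. For the difference of the change between AVC and compact cells, 0 calls became 12 with no filter and 12 to 25 when a library was left out, and that of *Shox2* ranged from -1.03 to 1.77, the latter without *Ets1* eKO replicate 1. The AVC share differed by -0.871 to -1.73 points in the other gates, and by -3.50 to 0.376 points when a library was left out. The cause of these shifts was not tested.

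Replicate numbers are shared by the groups, and deviations of same-numbered libraries from their group means had a correlation of -0.0147. With 2 libraries per group this is 1 value for both numbers, so it cannot settle whether same-numbered libraries were paired. With replicate number as a block, 20 genes were called between the groups in AVC cells, among them all 10 of the comparison without it, and 25 for the difference of the change between AVC and compact cells.

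With 57 to 97 AVC cells and 2 libraries per group, genes such as *Shox2*, with 9 to 50 UMIs per library, rest on few cells, and the shares of cells cannot reach a p below 0.33. Ambient RNA and doublets were not removed, and compact and trabecular cells were defined by gates, so classes in between were not described.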

Other observations

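Of 9 tested genes of Notch and neuregulin signaling, 0 were higher and 1, the neuregulin receptor gene *Erbb3*, was lower in AVC cells than in both other classes. *Erbb3* was at 0 to 3.45 CPM in AVC cells and lost its call against compact cells with total count scaling, under which the receptor gene *Erbb2* was higher than in both classes, so that 1 was higher and 0 were lower. Of 17 tested sarcomere genes, 3 (*Myh6*, *Myl7* and *Tpm1*) were higher and 7 (*Myh7*, *Myl2*, *Myl3*, *Tnni1*, *Tnni3*, *Actn2* and *Acta1*) lower than in both. With total count scaling the 3 higher genes and *Myh7*, *Myl2* and *Myl3* were still called against both classes. The outflow tract markers *Sema3c* and *Bmp4*, which are also in the list of AVC signals, were higher than in both classes, and *Wnt11* was higher than in compact cells. Of 8 tested immediate early and heat shock genes, 1 (*Junb*) was higher and 1 (*Egr1*) lower than in both, while 6 were lower than in trabecular cells, with a median log2 difference of -1.30. The epicardial genes tested were *Wt1*, higher than in compact cells, and *Krt19*, lower than in both classes. Of 5 tested erythroid genes, 5 were lower than in compact and 2 lower than in trabecular cells. With the limit on counts of other cell types 0 were called against either class (median log2 differences 0.09 and -0.11), and DESeq2 called 2 and 0. That limit counts the erythroid genes themselves, so the loss of their calls there is no separate test. Without control replicate 1, 5 were called against compact and 0 against trabecular cells. The erythroid sum was higher in AVC than in compact cells in control replicate 2 (74.2 and 62.0 CPM) and *Ets1* eKO replicate 1 (164 and 130 CPM). None of the 6 immune markers was abundant enough to be tested, and of the 5 sex-linked genes *Xist* was higher than in compact cells. With total count scaling *Wnt11*, *Wt1* and *Xist* were also higher than in trabecular cells. These calls are from edgeR's Benjamini-Hochberg adjusted quasi-likelihood F-test.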
